A study of Homo sapiens with 6 samples.

Results

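Copies of abundant housekeeping mRNAs that lie elsewhere in the genome were examined in long-read cDNA libraries of Calu-6 cells. The copies were chosen by symbol: every gene in the count table whose name was that of 1 of a fixed set of non-ribosomal housekeeping genes or mitochondrial genes followed by P and a number. This gave 45 of the 10072 genes in the table, each with 1 transcript model, and no measured level entered the rule. A gene needed a row in the table to be a member. The parents, the genes the copies derive from, numbered 45 by symbol, and 24 of them had at least 1 counted copy.

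A retrocopy arises when an mRNA is reverse transcribed and the DNA is inserted at a new place, usually by the enzymes of LINE-1 elements. It therefore starts without introns, often ends in a run of A, and lacks the promoter of its parent unless it lands near another. Genes with abundant mRNA in the germ line, such as those of translation, glycolysis and the cytoskeleton, have left many such copies. Young copies differ from the parent mRNA at few bases, so that a sequencing read with errors can be hard to place between the copy and the parent.

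Calu-6 is an established human lung carcinoma line. All 6 libraries came from cells whose genotype was labelled WT, transfected for 48 h at 10 nM with either a non-silencing siRNA (siControl, 3 libraries) or an siRNA that targets the TERT Delta2-4 transcript where its exon 1 is joined to exon 5 (siDelta2-4, 3 libraries), to ask what changed in the transcriptome when this splice variant was targeted. Per the study's methods, the treated cells stably carried an empty Flag-V5 vector or one with Delta 2-4, and the column names mark these 6 libraries as empty vector, a detail that the labels leave out. The study calls the libraries of a group biological replicates, but the labels do not say whether they came from separate cultures, so p-values measure the spread between these libraries, whatever its source.

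Within each group the libraries are called large, middle and small by their total count. The siControl libraries held 1037468 to 1106413 counts and the siDelta2-4 libraries 1070009 to 1309241. TERT, the target, had 0 rows in the table and its level was not analysed here. Among the genes listed, 1887 had no count in siControl and 0 had none in siDelta2-4, so a copy counted in siDelta2-4 alone is no sign of a change. The epithelial markers KRT8, KRT18, KRT7 and EPCAM were counted in every library, with 824, 1124, 41 and 13 counts in all. KRT19 had 1 count, and CDH1 had no row. Of 5 mesenchymal markers 2 were in the table, VIM with 987 counts, in every library, and FN1 with 2. Of 5 lung adenocarcinoma markers 0 were in the table.

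Of the 45 copies, 43 were annotated as processed pseudogenes, 6 of these as transcribed. The other 2, MTCO1P12 and MTND2P28, were unprocessed pseudogenes next to each other on chromosome 1, copies of the mitochondrial genes MT-CO1 and MT-ND2, for which the name retrocopy does not hold. A known model with 1 exon carried the counts of 42 copies. The counts of HNRNPA1P49, FTLP8 and ACTG1P25 were on models that TALON had added.

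The copies with the most counts were almost identical to their parents. The sequences below are of the copies with the most counts and of 2 copies of TMSB4X with few counts. They show the few coding bases at which copy and parent differ, within the stretch given. Parts outside the coding sequence also differ in some copies and are not shown. The sequences were read from GRCh38, with the parent's coding sequence from Gencode 44. Positions count from 1 at the A of the parent's start codon, and a capital in the copy marks a base that differs from the parent. PPIAP22 (chr21:18857779-18858276, plus strand, no other annotated gene at the locus) differed from the coding part of PPIA at 2 of 498 bases, G279A and T327A, both at the last base of a codon and neither changing the amino acid. The windows cover chr21:18858027-18858087 and chr21:18858075-18858135.
PPIAP22, bases 249 to 309: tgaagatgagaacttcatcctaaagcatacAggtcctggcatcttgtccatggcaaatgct
PPIA, bases 249 to 309: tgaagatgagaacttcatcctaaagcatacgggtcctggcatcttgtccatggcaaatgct
PPIAP22, bases 297 to 357: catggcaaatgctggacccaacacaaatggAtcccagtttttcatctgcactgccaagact
PPIA, bases 297 to 357: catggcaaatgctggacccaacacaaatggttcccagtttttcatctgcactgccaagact

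EEF1A1P5 (chr9:133019486-133020874, plus strand, no other annotated gene at the locus) differed from EEF1A1 at 4 of 1389 coding bases. T294C and T720C left the amino acid as it was, while T933G and C1094T changed it. The 2 windows around the changes to the protein cover chr9:133020388-133020448 and chr9:133020549-133020609.
EEF1A1P5, bases 903 to 963: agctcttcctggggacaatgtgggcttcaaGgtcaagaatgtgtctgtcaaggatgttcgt
EEF1A1, bases 903 to 963: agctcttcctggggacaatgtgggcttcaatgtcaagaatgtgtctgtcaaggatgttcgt
EEF1A1P5, bases 1064 to 1124: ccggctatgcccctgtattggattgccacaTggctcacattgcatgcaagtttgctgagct
EEF1A1, bases 1064 to 1124: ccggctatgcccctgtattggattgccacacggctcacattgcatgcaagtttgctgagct

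The 3 counted copies of TMSB4X, the gene of the actin-binding peptide thymosin beta 4, were each annotated over exactly the 135 coding bases. TMSB4XP8 (chr4:90838903-90839037, minus strand) differed by T46C, TMSB4XP6 (chr20:50840615-50840749, minus strand) by C13T, and TMSB4XP1 (chr1:42500205-42500339, minus strand) by C30G and G132A.
TMSB4X: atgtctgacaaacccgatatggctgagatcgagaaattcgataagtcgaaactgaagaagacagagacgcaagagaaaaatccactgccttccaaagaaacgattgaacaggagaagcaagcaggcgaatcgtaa
TMSB4XP8: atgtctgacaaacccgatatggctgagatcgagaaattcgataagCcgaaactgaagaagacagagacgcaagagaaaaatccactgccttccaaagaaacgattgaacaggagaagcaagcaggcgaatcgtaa
TMSB4XP6: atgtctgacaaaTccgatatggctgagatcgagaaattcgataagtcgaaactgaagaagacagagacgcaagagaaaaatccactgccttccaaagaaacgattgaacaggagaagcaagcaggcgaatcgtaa
TMSB4XP1: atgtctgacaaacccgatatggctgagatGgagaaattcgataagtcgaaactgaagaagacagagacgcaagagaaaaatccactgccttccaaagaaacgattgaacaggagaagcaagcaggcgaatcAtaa

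EEF1B2P3 (chrX:24788392-24789069, minus strand) differed from EEF1B2 at 7 of 678 coding bases: G10A, T27C, C134T, A234G, T481C, T594C and T639C. Of these 3 changed an amino acid. The first 180 bases, chrX:24788890-24789069, hold 3 of the 7.
EEF1B2P3, bases 1 to 180: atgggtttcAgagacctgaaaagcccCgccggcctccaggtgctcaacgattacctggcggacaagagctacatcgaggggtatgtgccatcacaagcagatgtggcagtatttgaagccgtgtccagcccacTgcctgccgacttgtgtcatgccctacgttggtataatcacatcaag
EEF1B2, bases 1 to 180: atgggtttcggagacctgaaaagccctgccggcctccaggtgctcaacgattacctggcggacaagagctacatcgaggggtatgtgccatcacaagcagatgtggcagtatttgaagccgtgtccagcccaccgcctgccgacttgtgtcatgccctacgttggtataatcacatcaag

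The reading frame of the parent was kept at its full number of codons, from start to stop codon, in 14 of the 43 copies of nuclear genes. These included PPIAP22 (165 codons), EEF1A1P5 (462 codons), EEF1B2P3 (225 codons) and all 3 copies of TMSB4X (44 codons). Frames shortened without a shift were not counted, as in HMGB1P5 (213 of 215 codons), PTMAP2 (109 of 110) and TMSB10P1 (43 of 44). A kept frame is a property of the reference sequence and was not set against protein data here. A run of at least 15 A within 20 bases was found within 60 bases after the aligned end in 25 of the 43 processed copies.

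Copies that appeared in the table were closer to their parents than those that did not. Of 1142 annotated genes whose symbols matched the rule, 1111 could be aligned over at least 50% of their length. The 45 copies in the table had a median identity to the parent mRNA of 97.73%, with a range from 83.32% to 99.71%, each gap counted as 1 difference. The 1066 copies with no row in the table had a median of 87.75%. An identity of at least 95% was reached by 84.4% of the copies in the table and by 6.9% of the others. The sets also differ in kind. Copies of mitochondrial genes were many among the annotated symbols, for example 48 of MT-CO1 and 38 of MT-ND5, but only 2 of the 45 in the table. Identity was not compared for copies of nuclear genes alone. At 99% or more there were 9 annotated copies, of which 7 were in the table. Under 90% there were 631, of which 3 were in the table. These 3, ACTG1P25, HNRNPA1P49 and FTLP8, were also the 3 copies whose counts lay on models added by TALON. The comparison is a description with no test, since copies of 1 parent share its sequence and may share its reads.

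**Figure D1:**
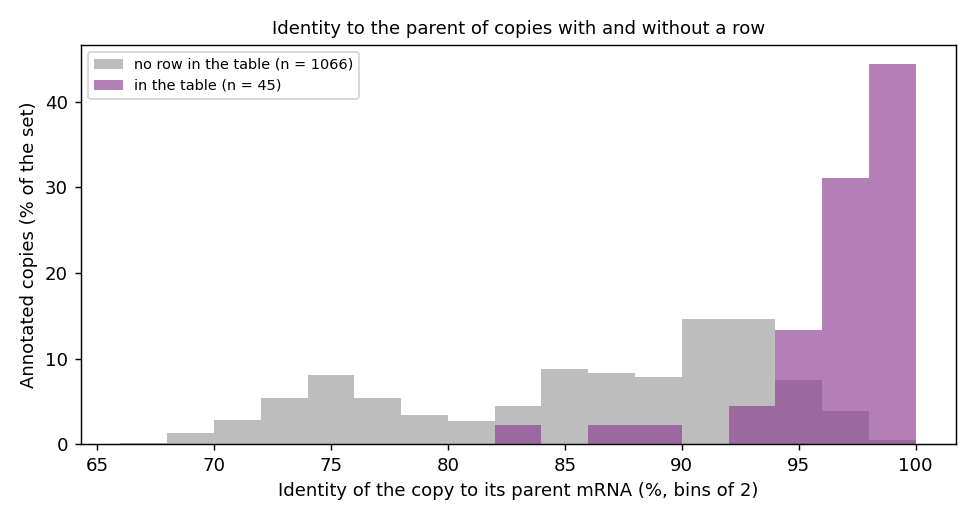
Percent identity to the parent mRNA (x axis, bins of 2 percentage points) for 45 annotated copies in the count table and 1066 with no row in it, each as a percent of its set (y axis). The copies in the table pile up at the right, with a median of 97.73% against 87.75%. The set with no row holds many copies of mitochondrial genes, and the set in the table holds 2.

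The counts were concentrated in a few copies. All 45 together held 21316 counts, of which PPIAP22 held 75.3% and EEF1A1P5 17.6%. The other 43 shared 1512 counts. At least 100 counts were reached by 7 copies, 18 had 6 to 99, and 20 had 5 or fewer, 9 of them a single count. In all 6 libraries 19 copies were counted, and 11 had no count in siControl, where a count of 0 over the group allows up to 3 counts. That limit covers counting error only, since PCR reads are not independent molecules. Over the 45 copies, identity to the parent and total count had a Spearman correlation of 0.48, and the total counts of parent and copy one of 0.14. The copies of 1 parent share its sequence and may share its reads, which was not examined, so these points are not independent.

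**Figure D2:**
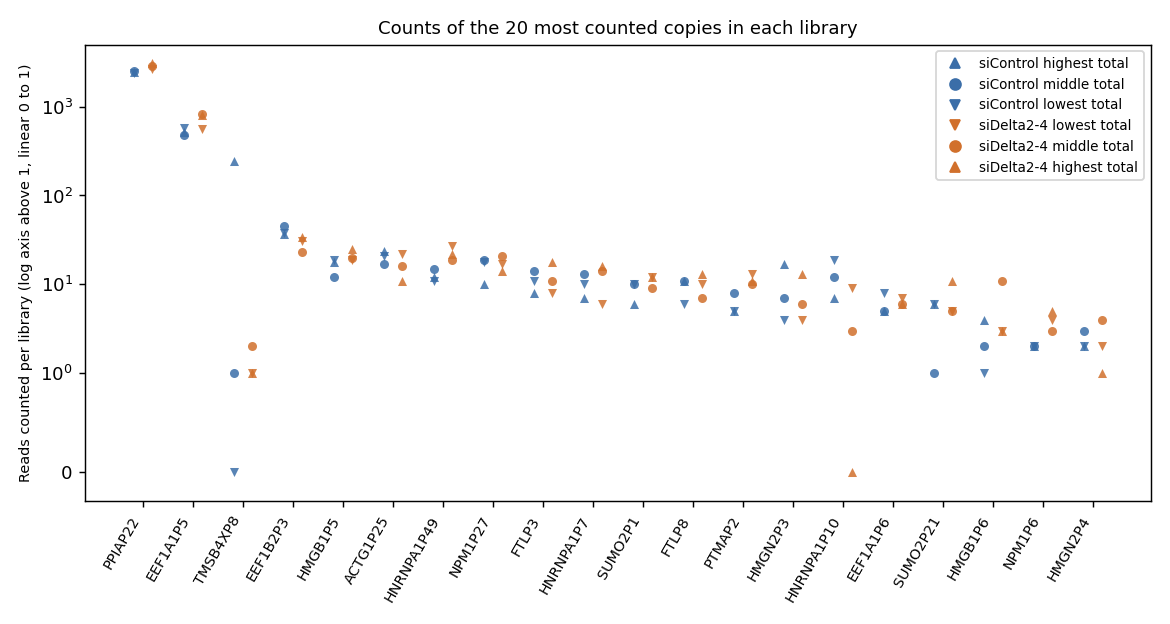
Reads counted in each of the 6 libraries (y axis, log scale above 1 and linear from 0 to 1) for the 20 copies with the most counts (x axis), with siControl in blue and siDelta2-4 in orange. PPIAP22 and EEF1A1P5 stand above all others in every library, and TMSB4XP8 has 1 library at 247 and the other 5 at 2 or fewer.

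Genome position was also compared between copies. No other annotated gene overlapped 14 of the 45 copies. A gene on the opposite strand overlapped 23, of which 8 had a counted gene there, and a gene on the same strand overlapped 9, of which 2 had a counted one. Whether the counting used strand is not stated in the sources used here, so reads of a copy and of a gene opposite to it cannot be told apart.

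The copies together took 0.305% ± 0.00613 of the library count after siControl and 0.322% ± 0.00703 after siDelta2-4 (SD, n = 3 each). The 3 siControl libraries lay at 0.311%, 0.299% and 0.306% and the siDelta2-4 libraries at 0.319%, 0.330% and 0.317%, in the order large, middle and small in siControl and the reverse in siDelta2-4; this order is kept throughout. Every siDelta2-4 library lay above every siControl library. The difference in means was 0.0168 percentage points, larger than either SD, and no test was run on this sum. Shares rest on library totals with no further scaling. On library totals alone the median log2 fold change over all genes tested was 0.095, and that of PPIAP22 was 0.076. A rise on this scale is therefore not particular to the copies. PPIAP22 alone made up 0.230% ± 0.00576 and 0.242% ± 0.00412. The share of the 43 others without PPIAP22 and EEF1A1P5 was 0.0259% ± 0.0118 in siControl and 0.0189% ± 0.00147 in siDelta2-4, a direction opposite to that of the whole group. That siControl spread came from 1 library at 0.0396%, and the other 2 lay at 0.0191% each. In that library, the large one, TMSB4XP8 alone held 247 counts, against 1 and 0 in the other 2. The same 247 counts are part of the 0.311% of all copies in that library.

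A low-count filter left 11 of the 45 copies for the gene test, which used edgeR's quasi-likelihood test with Benjamini-Hochberg adjustment over all 3888 genes that passed. At an adjusted p under 0.1, 1 of the 11 copies was called, EEF1B2P3, which was lower in siDelta2-4. Over all genes tested 13.0% were called, 7.00% higher and 5.97% lower. Of the 11, 6 had a positive and 5 a negative log2 fold change, with a median of 0.0073 beside 0.027 over all genes tested. CPM (counts scaled to a common library total with TMM factors) did not overlap between groups for 2 of the 11, EEF1B2P3 lower and HNRNPA1P49 higher, beside 26.0% of all genes tested.

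The only call fell among copies of translation elongation factor genes. EEF1A1 delivers aminoacyl-tRNA to the ribosome. Its copy EEF1A1P5 had 524, 475 and 576 counts in siControl (large, middle and small library) and 564, 820 and 798 in siDelta2-4 (small, middle and large library). In CPM these were 511, 456 and 552 against 528, 666 and 612, so the lowest siDelta2-4 library lay within the siControl range. The log2 fold change was 0.25 ± 0.097 (SE), with an adjusted p of 0.108, just outside the threshold (edgeR). EEF1A1 itself had a log2 fold change of 0.19 ± 0.084 (edgeR adjusted p = 0.156). The call of EEF1A1P5 turned on the libraries used: its edgeR adjusted p was 0.0128 without the small siControl library and 0.0883 without the small siDelta2-4 library, and it was 0.452 without the middle siControl library.

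EEF1B2 is a subunit of the exchange factor that reloads EEF1A1 with GTP. EEF1B2P3 had 37, 45 and 38 counts after siControl and 31, 23 and 34 after siDelta2-4. In CPM, siControl lay at 36.1, 43.2 and 36.4 and siDelta2-4 at 29.0, 18.7 and 26.1, so that every siDelta2-4 library was below every siControl library. EEF1B2P3 fell by 0.65 ± 0.22 on the log2 scale (edgeR adjusted p = 0.0659), while EEF1B2 had a log2 fold change of -0.12 ± 0.081 (edgeR adjusted p = 0.376). POLA1, the gene on the opposite strand, had 0 counts. DESeq2's Wald test gave EEF1B2P3 an adjusted p of 0.234. Without the middle siControl library the edgeR adjusted p was 0.242, and without the middle or the large siDelta2-4 library it was 0.278 and 0.124. The other copies of these factors, EEF1A1P6 (37 counts), EEF1B2P6 (12), EEF1A1P13 (8) and EEF1A1P11 (2), were too low to test.

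PPIAP22 is a copy of PPIA, the gene of the proline isomerase cyclophilin A. It had 2484, 2543 and 2396 counts after siControl and 2632, 2878 and 3114 after siDelta2-4. These are 2422, 2439 and 2295 CPM against 2464.5, 2338.5 and 2389.5, ranges that overlap. The log2 fold change was 0.0073 ± 0.074 (edgeR adjusted p = 0.971), beside 0.0100 ± 0.077 for PPIA (edgeR adjusted p = 0.963). The other counted copy, PPIAP11, had 3 counts.

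Copies of genes for RNA-binding and other nuclear proteins were counted at low levels. HNRNPA1 encodes a splicing regulator that binds nuclear RNA. HNRNPA1P49 had 12, 15 and 11 counts after siControl and 27, 19 and 22 after siDelta2-4, 10.5 to 14.4 CPM against 15.4 to 25.3, with no overlap. The log2 fold change was 0.63 ± 0.31 and did not pass (edgeR adjusted p = 0.216). The label of this copy does not describe its model, which had 8 exons and 1035 bases, whereas the annotated gene has a span of 904 bases. SFT2D1, on the opposite strand, had a known model of 8 exons and 1033 bases. This model had 36, 31 and 21 counts after siControl and 33, 31 and 41 after siDelta2-4. A model of SFT2D1 added by TALON, with 7 exons and 1059 bases, had 22, 19 and 28 counts against 41, 32 and 45, with no overlap. The whole gene had 58, 50 and 49 counts after siControl and 74, 63 and 86 after siDelta2-4, also without overlap. The part of that gene's reads in the count of HNRNPA1P49 was not tested.

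HNRNPA1P10, at 99.38% identity, had 7, 12 and 19 counts after siControl and 9, 3 and 0 after siDelta2-4. The siDelta2-4 library with the lowest total lay within the siControl range, and the copy did not pass the low-count filter. When 1 library was left out it entered the test, and it was called lower without the large siControl library and without the small siDelta2-4 library. HNRNPA1P7 had 7, 13 and 10 counts against 6, 14 and 16, with a log2 fold change of 0.048 ± 0.37 (edgeR adjusted p = 0.963). Its parent HNRNPA1 rose by 0.25 ± 0.093 on the log2 scale (edgeR adjusted p = 0.0934), a call that was lost when the counted copies were added to the parent (adjusted p = 0.114). It was also lost without each library but the small siControl one, with edgeR adjusted p of up to 0.443.

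HMGB1 and HMGN2 encode small chromatin proteins, and PTMA encodes prothymosin alpha, a small nuclear protein. HMGB1P5, with no other gene at its locus, had 18, 12 and 19 counts after siControl and 19, 20 and 25 after siDelta2-4, with a log2 fold change of 0.17 ± 0.29 (edgeR adjusted p = 0.772). HMGN2P3 had 17, 7 and 4 counts against 4, 6 and 13, a spread within each group as wide as that between them. PTMAP2 had 5, 8 and 5 counts after siControl and 13, 10 and 11 after siDelta2-4. These do not overlap as counts, but PTMAP2 did not pass the filter and was not tested.

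NPM1 is a nucleolar chaperone of ribosome assembly, and SUMO2 a small protein that is attached to others as a modifier. NPM1P27 had 10, 19 and 18 counts after siControl and 17, 21 and 14 after siDelta2-4, a log2 fold change of -0.061 ± 0.32 (edgeR adjusted p = 0.940). NPM1 rose by 0.39 ± 0.091 on that scale (edgeR adjusted p = 0.00763; 0.114 without the middle siControl library). SUMO2P1 had 6, 10 and 10 counts against 12, 9 and 12, with a log2 fold change of 0.13 ± 0.37 (edgeR adjusted p = 0.872), while SUMO2 rose by 0.56 ± 0.085 (edgeR adjusted p = 0.000119). With SEs of 0.32 and 0.37 in the copies, a change of the size seen in the parent would not have passed at this depth.

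Neither a copy of an actin gene nor one of a keratin gene was called. ACTG1 encodes a cytoplasmic actin. ACTG1P25 had 24, 17 and 21 counts after siControl and 22, 16 and 11 after siDelta2-4, with a log2 fold change of -0.54 ± 0.31 (edgeR adjusted p = 0.309), whereas ACTG1 rose by 0.42 ± 0.094 (edgeR adjusted p = 0.00543). ACTG1P25 was the most diverged of the 45, with 83.32% identity over 63.1% of its length, a gene span of 13488 bases and a TALON model of 2 exons. The keratin copies KRT8P3 and KRT8P45 had 3 counts and 1 count.

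TMSB4XP8 had the third highest count, and nearly all of it came from 1 library. It had 247, 1 and 0 counts after siControl and 1, 2 and 1 after siDelta2-4. The siControl library with the highest total held 247 of 252, and the filter removed the gene from the test. Its parent TMSB4X was counted evenly, at 3981, 3880 and 3562 CPM in siControl and 4552, 4234 and 4454 in siDelta2-4, and rose by 0.21 ± 0.075 on the log2 scale (edgeR adjusted p = 0.0796), a call lost when any 1 of the 6 libraries was left out (log2 fold changes of 0.14 to 0.24, edgeR adjusted p of 0.113 to 0.254). When TMSB4XP8 and the other copies were added to it, the log2 fold change was 0.18 and the call was lost (edgeR adjusted p = 0.145). CCSER1, the protein-coding gene on the opposite strand of TMSB4XP8, was counted through a single model of 1 exon and 528 bases, at 432, 476 and 424 counts after siControl and 497, 596 and 678 after siDelta2-4. In the library where TMSB4XP8 was high, CCSER1 had 432 counts, between the 424 and 476 of the other siControl libraries. The source of the 247 counts was not tested. TMSB4XP6 and TMSB4XP1, at 99.26% and 98.52% identity to the parent, had 2 counts and 1 count.

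**Figure D3:**
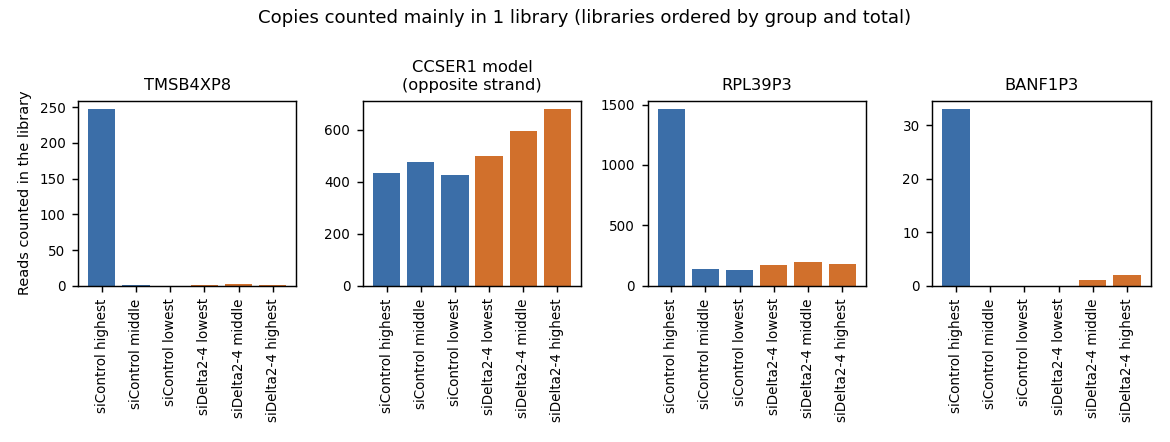
Reads counted in each of the 6 libraries (y axis, linear from 0; a separate scale in each panel) for TMSB4XP8, the CCSER1 model on its opposite strand, and the copies RPL39P3 and BANF1P3, with siControl in blue and siDelta2-4 in orange. TMSB4XP8 has 247 of its 252 counts in the large siControl library, where RPL39P3 and BANF1P3 are also highest, while CCSER1 lies between 424 and 678 in all 6.

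FTL and FTH1 encode the light and heavy chains of ferritin, the iron storage protein. FTLP3 had 8, 14 and 11 counts after siControl and 8, 11 and 18 after siDelta2-4, with a log2 fold change of -0.048 ± 0.36 (edgeR adjusted p = 0.961). FTLP8 had 11, 11 and 6 against 10, 7 and 13, with -0.11 ± 0.38 (edgeR adjusted p = 0.900). The FTLP8 model of 1 exon and 1343 bases was longer than the annotated copy of 267 bases, and IPO5, in which the copy lies on the opposite strand, had 0 counts. FTL had a log2 fold change of -0.19 ± 0.074 (edgeR adjusted p = 0.124). The copies of FTH1, FTH1P20 and FTH1P10, had 5 and 4 counts, too few to set beside FTH1, which fell by 0.48 on the log2 scale (edgeR adjusted p = 0.0517).

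The mitochondrial copy MTCO1P12, on chromosome 1, had 1, 3 and 1 counts after siControl and 3, 2 and 2 after siDelta2-4, and MTND2P28 had 1 count. The mitochondrial genes themselves had 3116 counts for MT-CO1 and 1568 for MT-ND2. At 98.64% and 98.37% identity, the 12 counts and the 1 count are far below those of the parents.

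**Figure D4:**
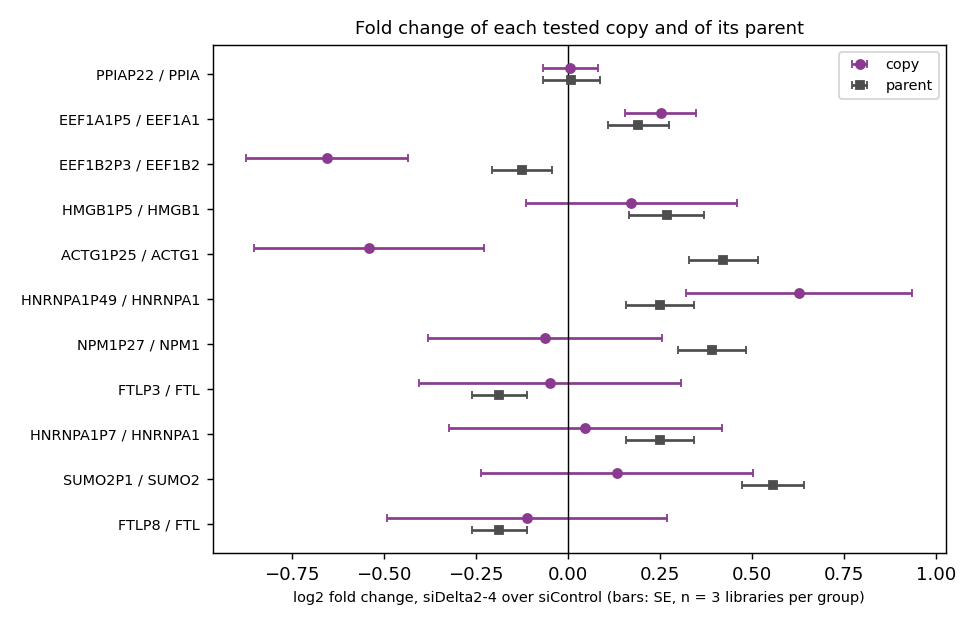
Log2 fold change of siDelta2-4 over siControl (x axis, 0 marks no difference) for the 11 tested copies and their parents (y axis), with bars of 1 SE from edgeR and 3 libraries per group. PPIAP22 and EEF1A1P5 lie beside their parents, and EEF1B2P3 and ACTG1P25 lie to the left of theirs.

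Of 44 parent entries tested (SLC25A6 has 2 entries), 13 were called (29.5%, beside 13.0% of all genes tested), 12 higher and 1 lower, with a median log2 fold change of 0.13. The count of parents called was 8 with DESeq2's Wald test and 7 at an adjusted p under 0.05, and it was 5 without the middle siControl library, 6 without the small or the middle siDelta2-4 library and 7 without the large one. Parents and copies are not compared by these counts, since the copies had far fewer reads and larger SEs. The parents were listed as abundant genes, and their 29.5% was not set against genes of like count. Of the 12 higher calls, 6 were genes of the mitochondrial genome, so these are not 12 separate results. Beside SUMO2, NPM1, ACTG1, TMSB4X and HNRNPA1, the higher ones were the mitochondrial chaperone HSPD1 (0.98 ± 0.26, edgeR adjusted p = 0.0169) and 6 mitochondrial genes of respiratory chain subunits, MT-CO1, MT-CO2, MT-ND1, MT-ND2, MT-ND4 and MT-ND5. The lower one was FTH1. Of these 13, SUMO2, NPM1, ACTG1 and HNRNPA1 had a copy that could be tested, and no copy of those 4 was called. The others had untested copies or no counted copy. No glycolytic parent was called: GAPDH, ENO1, PGK1, LDHA and LDHB had log2 fold changes of 0.084, -0.10, -0.052, 0.012 and 0.037. The copies GAPDHP1, ENO1P1 and LDHAP4 had 9, 1 and 2 counts.

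Each copy was then set against its parent within a library, which removes the scaling of the library. Long-read counts are 1 per cDNA read and were not divided by length. PPIAP22 was counted at 36.1%, 39.3% and 40.2% of PPIA in siControl and at 38.2%, 38.7% and 38.1% in siDelta2-4. EEF1A1P5 was counted at 25.3%, 25.8% and 27.6% of EEF1A1 against 26.2%, 27.1% and 28.8%. In both pairs the groups overlap and the ratio varied little. The mean percent of parent in siControl was 4.59% ± 0.554 for EEF1B2P3, 5.01% ± 0.636 for HMGB1P5 and 6.54% ± 1.00 for ACTG1P25 (SD, n = 3). It was between 0.267% and 2.93% for the other 6.

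The log2 ratio of copy to parent, with 1 added to both counts, was higher in siDelta2-4 for 4 of the 11 pairs and lower for 7. It was lower by 0.53 for EEF1B2P3, which lay at 4.27%, 5.23% and 4.28% of EEF1B2 in siControl and 3.65%, 2.53% and 3.35% in siDelta2-4. For ACTG1P25 the difference was -0.99, from 7.55%, 5.54% and 6.52% to 5.19%, 3.0% and 2.1% of ACTG1. In these 2 pairs the groups did not overlap, with an exact two-sided permutation p of 0.1 each, the smallest that 3 libraries against 3 allow. After adjustment over the 11 pairs the smallest exact permutation p was 0.55, and no pair can pass in this design. For PPIAP22 and EEF1A1P5 the differences were -0.0051 and 0.059 on the log2 scale, in each pair less than the SD of either group.

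**Figure D5:**
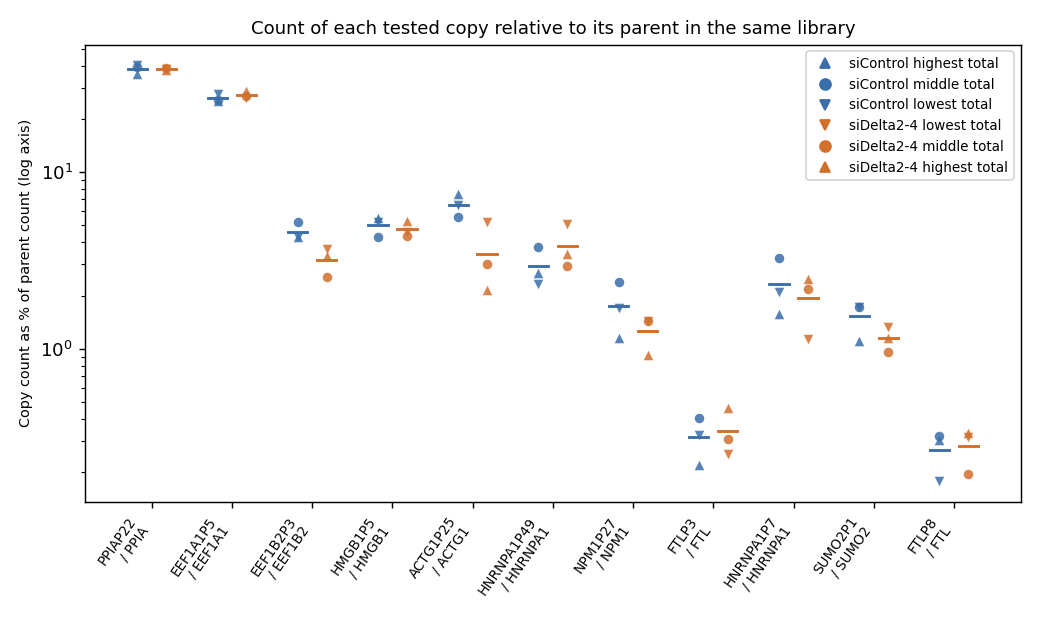
Count of each of the 11 tested copies as a percent of the count of its parent in the same library (y axis, log scale), with the mean of each group as a bar, siControl in blue and siDelta2-4 in orange. PPIAP22 lies near 38.5% in both groups, and the groups separate for EEF1B2P3 and ACTG1P25.

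Other copies in the table were counted for comparison. Of 60 tested retrocopies of ribosomal protein genes 12 were called, 1 higher and 11 lower, with a median log2 fold change of -0.089, beside 13.0% called, 7.00% higher and 5.97% lower, over all genes. Of 109 tested processed pseudogenes outside the 45, a set that includes these 60, 18 were called, 4 higher and 14 lower, with a median of -0.082. The 11 housekeeping copies had 1 call, lower, and a median of 0.0073. Ribosomal protein retrocopies took 6.62% ± 0.166 of the siControl and 6.09% ± 0.0466 of the siDelta2-4 counts. These are descriptions, and the difference between the sets was not tested.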

How the data were processed

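The files held whole numbers: raw counts of long reads for each transcript model, as deposited by the authors with no normalisation. Per the labels and methods, the authors made PCR-cDNA libraries, ran them for 72 h on 1 flow cell, aligned reads to GRCh38.p14 with minimap2 2.14, and used SAMtools 1.13, TranscriptClean and TALON with Gencode 44. Unannotated models needed 5 reads in each of 3 samples. How reads that match a copy and its parent were placed is not given in the sources used here. All 6 count columns were used. They name the siRNA only, so libraries are known by group and total.

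The 45 copies and all lists were chosen with earlier results of these data known. Gene sums entered edgeR 4.0.16 under R 4.3.3 (default filterByExpr, TMM factors, quasi-likelihood, two-sided, Benjamini-Hochberg, called at adjusted p under 0.1), and an SE was taken as the absolute log2 fold change over the root of F. The script was tested on simulated counts. Copies named were those called, the 20 with the most counts, those tested without overlap of CPM, and the parents of all these. Other genes were chosen after their values were seen. Ribosomal protein retrocopies were restricted to pseudogenes, since the symbol pattern also matched RPLP0, RPLP1 and RPLP2. Copies were aligned to the parent's mRNA with Biopython 1.88.

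Alternatives were DESeq2 1.42.0 (its Wald test, or its size factors in edgeR), totals without TMM, TMM computed without ribosomal protein and mitochondrial genes, no filter or at least 10 counts in every library, adjusted p under 0.05, known models, annotated genes, 1 row rule for both groups, a loess trend on length removed (span 0.4), a block on the column number, copies summed with parents, a pseudocount of 0.5 and each library left out. Shares without PPIAP22 and EEF1A1P5 were added after seeing the data.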

Additional observations from a re-analysis of the deposited data

How the results depend on the processing

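EEF1B2P3 kept a negative log2 fold change in every setting run, from -0.78 to -0.49, while its call was lost in several of them. DESeq2's Wald test called 0 copies (0 lower), 221 genes, 8 parents and 10 processed pseudogenes. Totals without TMM called 1 copy higher, EEF1A1P5, and 0 lower, moved the median of all genes to 0.095 and split the calls into 361 higher and 152 lower, against 272 and 232. With a length trend removed the split was 220 and 277, and 12 processed pseudogenes were called. Without a filter 3 copies were called, all 3 lower (EEF1B2P3, HNRNPA1P10 and TMSB4XP8). The median of all 45 was 0.47, beside 0.19 over all genes in that setting. Of the 45 copies 11, and of all genes 1887, had no siControl count and could only come out higher. Neither median is therefore a measure of change. Under a minimum of 10 counts per library, as under 1 row rule for both groups, 2 copies were called, 1 of them higher (EEF1A1P5). At adjusted p under 0.05 there were 0 copies (0 lower), 304 genes, 7 parents and 12 processed pseudogenes. Known models alone gave 252 genes, and of the 8 pairs left 2 were higher in siDelta2-4.

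The numbers in the column names did not pair the libraries (correlations of 0.039, -0.136 and -0.0843). With that number as a replicate block 0 copies (0 lower), 299 genes, 7 parents, 7 ribosomal protein retrocopies and 10 processed pseudogenes were called.

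Leaving out 1 library at a time gave 194 to 1041 genes, 0 to 3 copies (0 to 1 higher, 0 to 2 lower), 5 to 18 parents, 6 to 19 ribosomal protein retrocopies and 8 to 34 processed pseudogenes. The extremes came without the middle siDelta2-4 library (194 genes) and without the small siControl library (1041 genes). The median of the copies tested ranged from -0.12 to 0.056, the difference in their summed share from 0.0128 to 0.0198 percentage points, and the pairs higher in siDelta2-4 from 2 to 5. Log2 fold changes that changed sign ranged from -0.043 to 0.025 for PPIAP22, -0.16 to 0.29 for HNRNPA1P7, -0.082 to 0.28 for SUMO2P1, -0.37 to 0.11 for FTLP8, -0.36 to 0.15 for FTLP3, -0.31 to 0.13 for NPM1P27, -0.013 to 0.27 for HMGB1P5, -0.069 to 0.050 for PPIA, -0.058 to 0.098 for PTMA and -0.090 to 0.065 for HMGN2. Log2 ratios to the parent ranged from -0.052 to 0.027 for PPIAP22, -0.13 to 0.28 for FTLP3, -0.50 to 0.023 for HNRNPA1P7 and -0.16 to 0.29 for FTLP8.

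Scaling moved values near 0 across it. PPIAP22, PPIA and PTMA were at -0.019, -0.017 and -0.0084 with the Wald test, at -0.019, -0.017 and -0.0083 with DESeq2 size factors and at -0.017, -0.015 and -0.0059 with the reduced TMM. PPIAP22 and PPIA were at -0.0090 and -0.0057 without a filter, -0.024 and -0.023 on known models and -0.0073 and -0.0038 on annotated genes. Totals without TMM put NPM1P27, FTLP3 and HMGN2 at 0.0068, 0.018 and 0.041, and the length trend put FTLP3, PPIA and PTMA at 0.063, -0.13 and -0.11. The difference in summed share was -0.0071 percentage points without PPIAP22 and EEF1A1P5, and -0.00022 when the large siControl library was also left out. In each case the cause was not tested. With the length trend removed, the log2 fold changes of EEF1A1P5 and HNRNPA1 were 0.11 and 0.093, with adjusted p of 0.435 and 0.536. FTL was called lower by the Wald test, on known models, on annotated genes, with the length trend removed and without the small siControl library. Depth limits most copies: 20 had 5 counts or fewer and 18 had 6 to 99.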

Other observations

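The pattern of TMSB4XP8 was looked for in the whole table with a rule chosen after seeing it: at least 20 counts in 1 library and more than 5 times the count of every other library. Of 21472 models 3 met it, all in the large siControl library and all processed pseudogenes. RPL39P3, a copy of the ribosomal protein gene RPL39, had 1460, 142 and 134 counts after siControl and 173, 194 and 177 after siDelta2-4. BANF1P3, a copy of the gene of a DNA-bridging protein of the nuclear envelope, had 33, 0 and 0 counts against 0, 1 and 2. No model met the rule in any of the other 5 libraries. The 3 models were short, at 135, 156 and 261 bases.

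Parents with a counted copy had a median total of 3939.5 counts, and the 22 parent entries without one had 1434.5. Yet copy counts did not follow parent counts gene by gene: GAPDH, the most counted parent at 44093, had 1 counted copy with 9 counts, and TMSB10, at 28790, had 1 with 2 counts.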
